A study of Mus musculus with 6 samples.

Results

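Collagen chain genes encode the protein strands that wind around each other into the fibres, networks and anchors of the extracellular matrix. The table held 44 genes with a symbol of the form Col, number, a, number, and 43 of them had at least 10 counts in at least 3 of the 6 libraries, out of 18422 genes in all. Those 43 are described here as 8 fibrillar chains, 9 basement membrane chains, 7 cartilage chains and 19 other chains. The gene left out was Col6a4, with 5 to 9 counts per library, and the lowest genes kept were Col19a1, with 10 to 23, and Col6a5, with 14 to 33. All 43 also passed the count filter of the test, which kept 14866 genes.

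The libraries were made from ear skin at postnatal day 21. There were 3 libraries of the genotype ecko, in which Vegfr2 was deleted in endothelial cells, and 3 of littermate controls. Mice of both genotypes had received tamoxifen, the drug that sets off the deletion, but the series gives more than 1 dosing schedule and does not tie these mice to one. The sources used here give no Cre line, strain or animal number, so the p-values rest on how far libraries of a genotype vary, which may be technical in part.

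Libraries held 17255419 to 18054700 counts. Vegfr2, whose official symbol is Kdr, had 475 to 595 counts in controls and 37 to 58 in ecko libraries, so the targeted gene was low in each library labelled ecko (log2 fold change -3.54, SE 0.17, edgeR adjusted p = 2.68e-05). Y-linked genes had 24 and 36 reads in control 3 and ecko 3, against 3712 to 4390 elsewhere, so each group held 2 male libraries and 1 female library. The libraries of a group thus came from more than 1 animal, but whether its 2 male libraries did is not given. Ear skin holds epidermis, dermis, vessels, fat, muscle and elastic cartilage, and in bulk tissue fewer cells of a type and less RNA per cell cannot be told apart.

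Fibrillar collagens such as types I, III and V form the banded fibres that give dermis its strength and are made mainly by fibroblasts. Type IV collagen forms the mesh of basement membranes under epithelium and around vessels, fat cells and muscle fibres, while types XV and XVIII sit at the outer face of many vessel basement membranes. Cartilage is built on type II fibres that carry types IX and XI, and the remaining chains bead, coat or tether these structures, or cross the cell membrane.

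Of the 43 chains, 3 fell in ecko skin and none rose (adjusted p under 0.05 over all genes, by the quasi-likelihood test of edgeR). They were Col11a2 of cartilage, Col15a1 of vessel basement membranes and the minor fibrillar chain Col5a3. Over all genes tested, 1.08% fell, 0.686% rose and 1.76% passed in either direction, against 6.98% of the chains. Below 0 lay 31 of the 43 log2 fold changes (72.1%), with a median of -0.14, where 50.5% of all genes lay below 0 around a median of 0.00. With single libraries left out, 26 (without control 2) to 34 (without ecko 3) of the 43 were below 0. An unadjusted p under 0.05 was found for 12 chains, all of them lower in ecko skin, beside 7.95% of all genes lower and 7.41% higher. In 8 chains the control and ecko libraries did not overlap (18.6%, against 21.0% of all genes), and in each the ecko libraries were lower, which held for 10.8% of all genes. By DESeq2 5 chains fell, and leaving out single libraries gave between 0 and 7, as detailed for each chain.

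**Figure D1:**
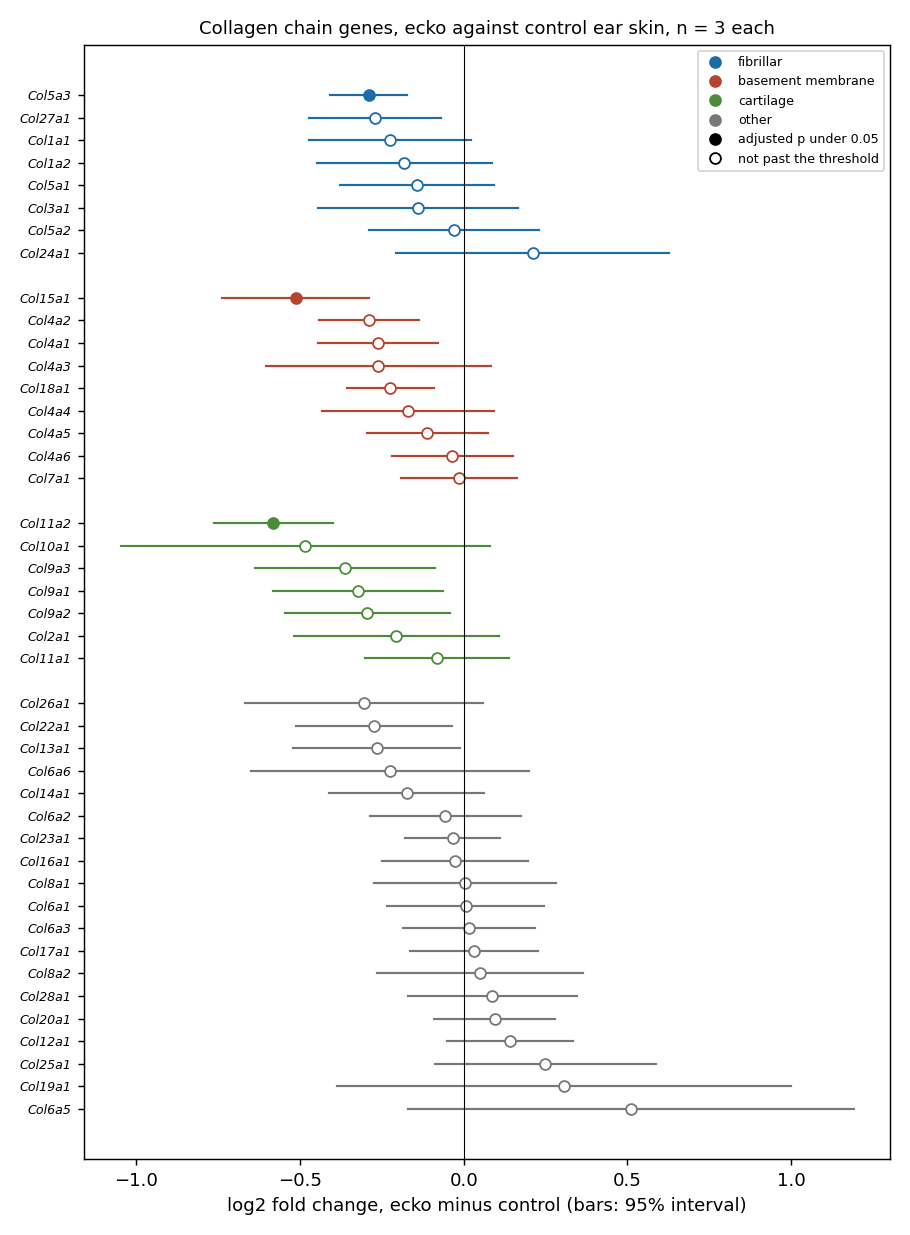
Each point is the log2 fold change of a collagen chain gene, ecko minus control, with its 95% interval, grouped by kind of chain. Filled points, which are Col5a3, Col15a1 and Col11a2, passed an adjusted p of 0.05, and all basement membrane and cartilage chains lie left of 0.

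The stretches before the start sites of the 3 chains that fell are shown because these are the chains whose RNA fell. They are RefSeq sequences on GRCm38.p6, each the 250 bases before a start site and outside the exons of GENCODE M21, although the RefSeq gene span of each begins further upstream in another transcript model. The windows are chr17:34038888-34039137 on the plus strand for Col11a2, chr4:47207762-47208011 on the plus strand for Col15a1 and chr9:20815068-20815317 on the minus strand for Col5a3, all read 5′ to 3′. Capitals mark the TATA box (searched as TATAAA), the CCAAT box (searched by that name) and the GC box (searched as GGGCGG), on either strand, as matches of letters and not as sites shown to be used.
Col11a2: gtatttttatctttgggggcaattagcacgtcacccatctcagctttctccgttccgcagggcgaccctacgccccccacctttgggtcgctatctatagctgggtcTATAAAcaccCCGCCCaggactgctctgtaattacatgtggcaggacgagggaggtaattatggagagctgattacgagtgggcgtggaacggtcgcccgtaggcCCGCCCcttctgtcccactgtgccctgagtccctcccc
Col15a1: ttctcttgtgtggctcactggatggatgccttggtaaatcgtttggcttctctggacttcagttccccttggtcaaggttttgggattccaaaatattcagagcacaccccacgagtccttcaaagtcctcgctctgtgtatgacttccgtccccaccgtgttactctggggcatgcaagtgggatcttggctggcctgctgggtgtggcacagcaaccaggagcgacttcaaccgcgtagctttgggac
Col5a3: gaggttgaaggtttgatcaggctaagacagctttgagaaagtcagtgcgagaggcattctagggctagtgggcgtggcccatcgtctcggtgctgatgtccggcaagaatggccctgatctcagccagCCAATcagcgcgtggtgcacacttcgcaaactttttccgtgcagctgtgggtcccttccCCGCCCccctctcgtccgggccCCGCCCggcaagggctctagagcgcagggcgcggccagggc

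The Col11a2 stretch held a TATA box 1 time and a GC box 2 times, the Col5a3 stretch a CCAAT box 1 time and a GC box 2 times, and the Col15a1 stretch none of them. No match overlapped another. RefSeq windows of the 250 bases before a start site were found for 34 of the 43 chains, 37 in all, and 17 of them hold bases of annotated exons, unlike those printed. Matches were counted over whole windows, exonic bases included. The GC box was in 56.8% of these and in 32.7% of all 32851 windows, the TATA box in 13.5% and 12.4%, and the CCAAT box in 32.4% and 33.8%.

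Among the basement membrane chains, all 9 had log2 fold changes below 0, with a median of -0.22, though Col4a6 and Col7a1 not in every alternative fit. Of the 9, 1 passed. That was Col15a1 (Entrez 12819, chr4:47207655-47313167), whose chain lies just outside the basement membranes of capillaries, muscle and fat. Its level was 167, 199 and 164 CPM (counts scaled to a common library size with TMM factors) in controls and 108, 138 and 125 CPM in ecko libraries. Every ecko library lay below every control library. The mean went from 177 ± 19.5 to 124 ± 14.8 CPM (SD, n = 3 each), and so fell by 29.9% (log2 fold change -0.51, SE 0.10, edgeR adjusted p = 0.0376). This call did not hold without control 1 (edgeR adjusted p = 0.0584), control 2 (0.0986), ecko 1 (0.138), ecko 2 (0.0675) or ecko 3 (0.129), where the log2 fold change stayed between -0.60 and -0.42. It was also lost with a sex term (edgeR adjusted p = 0.0504) and in the male libraries alone (0.112).

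Col18a1 (Entrez 12822, on chromosome 10) encodes the closest relative of that chain, from whose end the fragment endostatin is cut. It had 135, 129 and 121 CPM in controls and 108, 113 and 108 CPM in ecko libraries. The groups did not overlap, but the difference did not pass (log2 fold change -0.22, SE 0.06, edgeR adjusted p = 0.115). Within each library, the log2 ratio of Col18a1 to Col15a1 per length was -0.60 ± 0.16 in controls and -0.31 ± 0.14 in ecko skin (SD, n = 3 each).

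Type IV is the network collagen of every basement membrane, and its main chains come from Col4a1 and Col4a2, neighbours on chromosome 8 that are transcribed away from each other. Their exons at the 5′ ends share 22 bases on opposite strands, which is 0.295% of the exon length of Col4a1, and the reads were not stated to carry strand. Col4a1 (Entrez 12826, chr8:11198423-11312889) had 607, 718 and 598 CPM in controls and 530, 543 and 531 CPM in ecko libraries. Col4a2 (Entrez 12827, chr8:11312805-11449287) had 414, 473 and 426 CPM in controls and 353, 364 and 358 CPM in ecko libraries. In both genes all ecko libraries lay below all controls and close together, at an SD of 7.34 and 5.48 CPM against 66.8 and 31.4 CPM in controls.

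Neither difference passed the test over all genes. The log2 fold change was -0.26 (SE 0.08, edgeR adjusted p = 0.170) for Col4a1 and -0.29 (SE 0.07, edgeR adjusted p = 0.0792) for Col4a2. With DESeq2 both passed (adjusted p = 0.0484 and 0.00551). Their log2 ratio per length was 0.37 ± 0.06 in controls and 0.40 ± 0.01 in ecko skin (SD, n = 3 each), an overlap between the groups (exact permutation p = 0.5, two-sided).

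The other type IV chains were far less abundant. Col4a3 and Col4a4, which form the specialised network known from kidney, had 5.90 to 7.45 and 9.87 to 11.9 CPM in controls. In ecko libraries they had 4.54 to 6.04 and 8.81 to 10.5 CPM, so both overlapped. A noncoding gene on the opposite strand shares 5.65% of the exon length of Col4a3, and whether reads there were told apart by strand was not given. Col4a5 and Col4a6, an X-linked pair whose chains occur together in the epidermal basement membrane, had 52.8 to 63.1 and 30.1 to 35.4 CPM in controls against 49.6 to 57.4 and 30.9 to 34.8 CPM in ecko libraries. Log2 fold changes of these 4 lay between -0.26 and -0.03, and the smallest edgeR adjusted p was 0.465. Col7a1, the anchoring fibril chain made mainly by keratinocytes and fibroblasts at the junction of epidermis and dermis, averaged 288 ± 28.5 CPM in controls against 285 ± 13.9 CPM in ecko libraries (SD over 3 libraries, log2 fold change -0.01, SE 0.08).

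**Figure D2:**
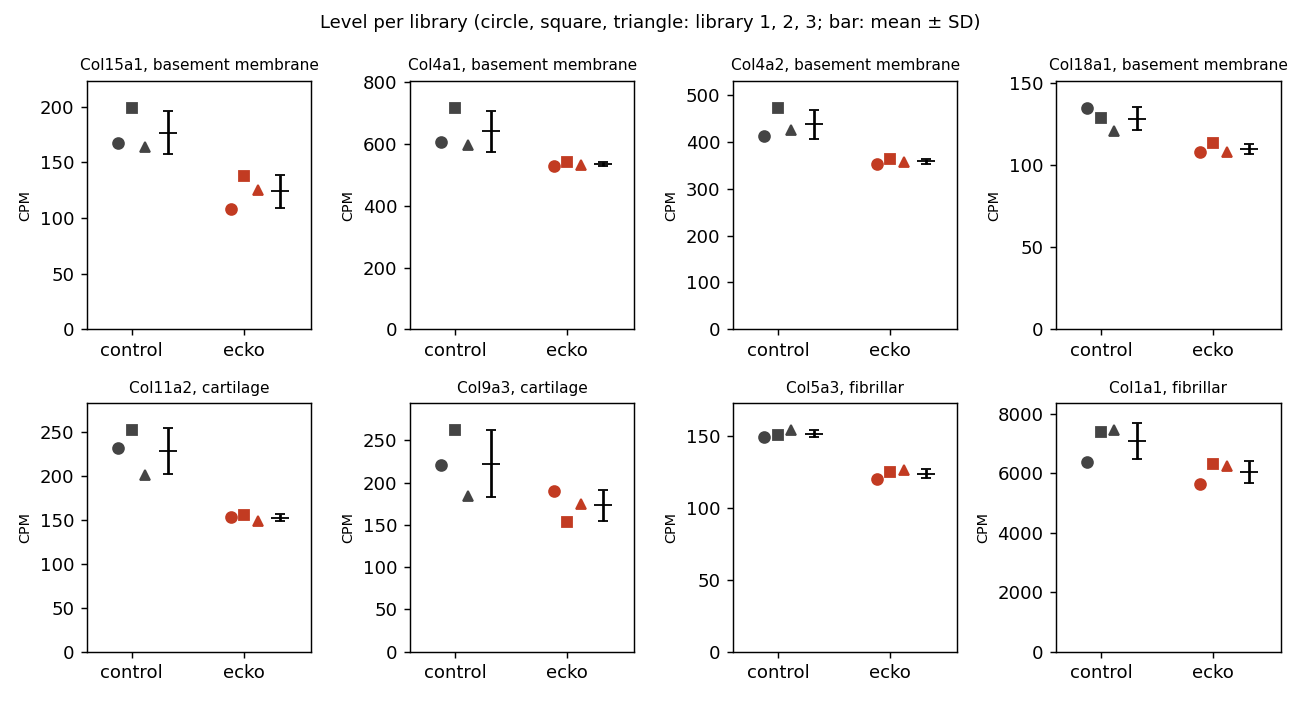
CPM of 8 chains in each library, with circle, square and triangle for libraries 1, 2 and 3 of a group and a bar for the mean ± SD (n = 3). The ecko libraries lie below all controls in Col15a1, Col4a1, Col4a2, Col18a1, Col11a2, Col5a3 and Col1a1, while Col9a3 overlaps. The 8 shown are a selection, and over all 43 chains 18.6% did not overlap, against 21.0% of all genes.

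Endothelial cells, mural cells, fat cells and muscle fibres lie on or within basement membranes. Of 11 endothelial markers 9 fell and none rose (median -0.73), and their summed level was 401 to 439 CPM in controls and 249 to 254 CPM in ecko libraries. For Cdh5, the gene of VE-cadherin, the log2 fold change was -0.93 (SE 0.07), and for the endothelial receptor gene Tie1 it was -1.07 (SE 0.08). Of 9 markers of pericytes and smooth muscle 3 fell (median -0.38, summed level 570 to 633 against 448 to 473 CPM). Adipocyte markers gave 4 falls of 8 (median -0.63, 639 to 734 against 376 to 474 CPM), and skeletal muscle markers 2 of 8 (median -0.43, 5948 to 8849 against 4976 to 5610 CPM). The adipocyte hormone gene Lep, named after its value was seen, was above 0, at 9.05 ± 5.16 CPM in controls and 16.7 ± 3.53 CPM in ecko libraries (SD, n = 3 each). Its log2 fold change was 0.88 (SE 0.32), and it did not pass (edgeR adjusted p = 0.231). None of these markers was at 0, and the part of these cells in the values of the basement membrane chains was not tested.

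Genes of other basement membrane components did not pass. Of 20 laminin, nidogen and related genes, 12 were below 0 and 8 above, with a median of -0.09. The smallest p belonged to the laminin chain gene Lamc3 (log2 fold change 0.28, SE 0.06, edgeR adjusted p = 0.0669) and to Npnt, the gene of nephronectin (-0.21, SE 0.06, edgeR adjusted p = 0.117). Unadjusted, 7 of them had a p under 0.05 on the lower side and 1 on the higher, beside 7.95% of all genes lower and 7.41% higher.

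All 7 cartilage chains were below 0 as well, with a median of -0.32, and Col11a2 passed. Col2a1 and Col11a1 were not below 0 in every alternative fit. Col11a2 (Entrez 12815, chr17:34038919-34066684) encodes a chain of type XI collagen, the minor fibril collagen at the core of cartilage fibres. It had 231, 252 and 201 CPM in controls and 153, 155 and 148 CPM in ecko libraries. The highest ecko value was well under the lowest control. The mean went from 228 ± 25.7 to 152 ± 3.61 CPM (SD, n = 3 each), and so fell by 33.2% (log2 fold change -0.58, SE 0.08, edgeR adjusted p = 0.00930). This was the smallest p of any collagen chain and rank 56 of all genes. It passed in 15 of 17 alternative settings, counting the threshold of 0.1, which it could not fail. The exceptions were the fits without ecko 1 (edgeR adjusted p = 0.0506) and without ecko 2 (0.0588).

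Its partner chain gave a smaller value. Col11a1 had 214, 275 and 225 CPM in controls and 205, 228 and 241 CPM in ecko libraries, which overlap (log2 fold change -0.08, SE 0.10, edgeR adjusted p = 0.765). Within a library, the log2 ratio of Col11a1 to Col11a2 per length was -0.83 ± 0.15 in controls and -0.33 ± 0.14 in ecko libraries (SD, n = 3 each), a shift of 0.50. The highest control was at -0.73 and the lowest ecko library at -0.47. The groups did not overlap (exact permutation p = 0.1, two-sided, the smallest that 3 against 3 libraries allow, and 0.26 when adjusted over 13 pairs).

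Type IX collagen decorates the surface of type II fibres, and its chains come from Col9a1, Col9a2 and Col9a3. Col9a3 had 221, 262 and 184 CPM in controls and 190, 153 and 175 CPM in ecko libraries, and Col9a2 had 258, 272 and 199 against 218, 184 and 192 CPM. In both, the third control lay within the range of the ecko libraries. Col9a1 ranged from 155 to 219 CPM in controls and from 136 to 159 CPM in ecko libraries. Log2 fold changes were -0.36 (SE 0.12), -0.29 (SE 0.11) and -0.32 (SE 0.12) for Col9a3, Col9a2 and Col9a1, with edgeR adjusted p of 0.199, 0.256 and 0.227. The exons of Col9a3 share 6.07% of their length with Tcfl5 on the opposite strand.

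Col2a1, the main fibre chain of cartilage, had 300, 438 and 287 CPM in controls and 303, 301 and 284 CPM in ecko libraries, so 1 control stood apart. Col10a1, the chain of hypertrophic cartilage, ranged from 26.9 to 62.6 CPM in controls alone and from 29.5 to 40.3 CPM in ecko libraries. Neither passed (edgeR adjusted p = 0.542 and 0.404). Control 3 was the lowest control in 5 of the 7 cartilage chains and control 2 the highest in 6. Without control 3, the only female control, Col9a2, Col9a3 and Col10a1 passed (edgeR adjusted p = 0.0291, 0.0419 and 0.0239). In the male libraries alone, which also leave out ecko 3, none of them passed (edgeR adjusted p = 0.125, 0.142 and 0.101).

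Chondrocytes also make matrix proteins other than collagens. None of the 12 chondrocyte markers tested passed, 11 were below 0, and the median was -0.11. The smallest p belonged to Ucma (-0.50, SE 0.14, edgeR adjusted p = 0.138) and Snorc (-0.46, SE 0.18, edgeR adjusted p = 0.264). Their summed level was 868 to 1290 CPM in controls and 874 to 990 CPM in ecko libraries, which overlap. Matn1, a matrilin gene of cartilage, had 1 count in 1 control library and 0 in the others. The part of cartilage content in the values of the cartilage chains was not tested.

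Among the 8 fibrillar chains, 7 were below 0, with a median of -0.16, and Col5a3 passed. Type V collagen is built into type I fibres and limits their width, and Col5a3 (Entrez 53867, chr9:20770050-20815117) encodes its least abundant chain in these libraries. It had 150, 151 and 154 CPM in controls and 120, 125 and 127 CPM in ecko libraries, 2 tight and separate groups. The mean went from 152 ± 2.43 to 124 ± 3.24 CPM (SD, n = 3 each), and so fell by 18.2% (log2 fold change -0.29, SE 0.05, edgeR adjusted p = 0.0286). This call was lost without control 2 (edgeR adjusted p = 0.0732), ecko 1 (0.138), ecko 2 (0.131) or ecko 3 (0.0802) and in the male libraries alone (0.0953), where the log2 fold change stayed between -0.31 and -0.27.

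The other type V chains differed less. Col5a1 had 679, 850 and 892 CPM in controls and 677, 752 and 765 CPM in ecko libraries (log2 fold change -0.14, SE 0.11), and Col5a2 had 572, 765 and 766 against 632, 688 and 742 CPM (-0.03, SE 0.12). Both overlap between the groups. The log2 ratio of Col5a1 to Col5a2 per length was 0.38 ± 0.05 in controls and 0.27 ± 0.04 in ecko skin (SD, n = 3 each), without overlap (exact permutation p = 0.1, two-sided, and 0.26 adjusted over 13 pairs).

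Types I and III make up most of the dermal fibre mass and most of the collagen RNA. Col1a1, Col1a2 and Col3a1 together took 67.7% to 69.8% of all collagen counts in controls and 65.8% to 67.9% in ecko libraries. Col1a1 (Entrez 12842, chr11:94936224-94953042) had 6378, 7410.2 and 7460.2 CPM in controls and 5638, 6300.2 and 6244 CPM in ecko libraries. These groups did not overlap, but control 1 came close to the ecko libraries, and the difference did not pass (log2 fold change -0.22, SE 0.11, edgeR adjusted p = 0.373). Col3a1 had 9381, 11539 and 11984 CPM in controls and 8932, 10001 and 10954 CPM in ecko libraries, and Col1a2 had 7924, 9453 and 9429 against 7218, 8106 and 8315 CPM. Both overlap, with log2 fold changes of -0.14 (SE 0.14) and -0.18 (SE 0.12).

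For the type I genes, the 95% interval of the log2 fold change ran from -0.47 to 0.02 for Col1a1 and from -0.45 to 0.09 for Col1a2, so both intervals included 0. In 6 of the 8 fibrillar chains control 1 was the lowest control, and in 7 of 8 ecko 1 was the lowest ecko library. Col27a1, a fibrillar chain first known from cartilage, had 147, 165 and 126 CPM in controls and 127, 116 and 119 CPM in ecko libraries (log2 fold change -0.27, SE 0.09, edgeR adjusted p = 0.195). It passed in the fit without control 3 (edgeR adjusted p = 0.0315) but not in the male libraries alone (0.123). Col24a1, at 5.27 to 8.20 CPM in controls and 6.26 to 9.13 CPM in ecko libraries, had the only fibrillar value above 0 (0.21, SE 0.19).

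Fibroblasts are the main source of the fibrillar chains in dermis. Of 11 fibroblast markers, none passed, 7 were below 0, and the median was -0.04, with a summed level of 1630 to 2123 CPM in controls and 1920 to 2006 CPM in ecko libraries. The smallest p belonged to Pdgfrb (log2 fold change -0.19, SE 0.08, edgeR adjusted p = 0.294), a receptor gene shared with pericytes, and Pdgfra (0.19, SE 0.09, edgeR adjusted p = 0.375), the receptor gene typical of dermal fibroblasts. The lowest sum was that of control 1, which was also the lowest control in most fibrillar chains. The part of fibroblast content in the values of the fibrillar chains was not tested.

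**Figure D3:**
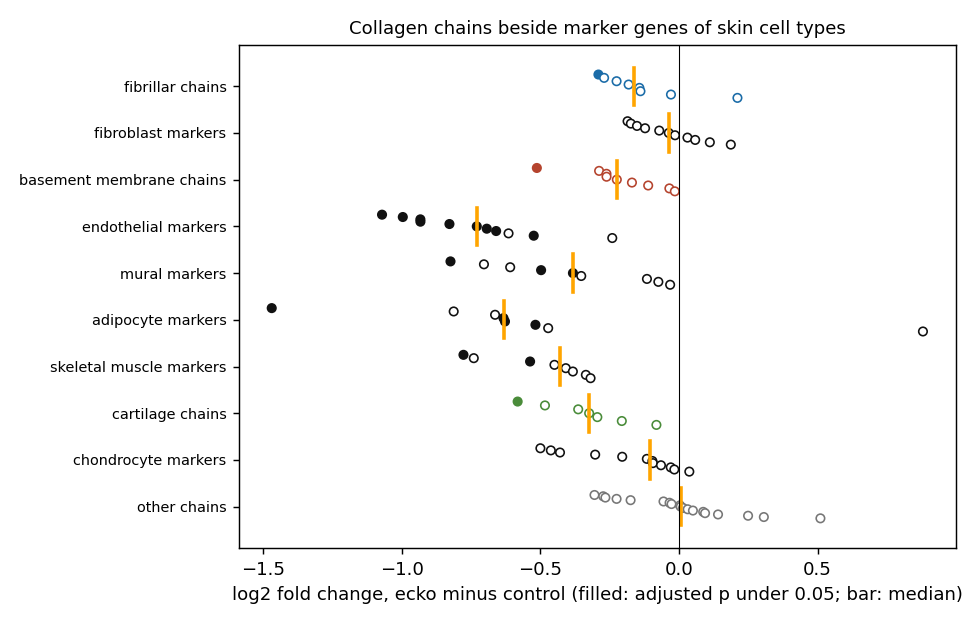
Log2 fold change of each chain or marker gene (points, filled where adjusted p is under 0.05) with the median of each list (orange bar). Medians are -0.22 for basement membrane, -0.32 for cartilage, -0.16 for fibrillar and 0.01 for other chains. Those of the markers are -0.73 for endothelial, -0.38 for mural, -0.63 for adipocyte, -0.43 for skeletal muscle, -0.11 for chondrocyte and -0.04 for fibroblast.

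None of the 19 other chains passed, and their values lay around 0, with 11 above, 8 below and a median of 0.01. Type VI collagen forms beaded filaments around cells, and Col6a1 had 1088, 1453 and 1367 CPM in controls and 1280.0, 1289 and 1357 CPM in ecko libraries (log2 fold change 0.01, SE 0.11). Col6a2 had 1239 ± 172 against 1192 ± 22.6 CPM and Col6a3 1041 ± 111 against 1052 ± 47.1 CPM (SD, n = 3 each). In all 3 genes the ecko libraries lay within the range of the controls. The 95% intervals of their log2 fold changes reached from -0.28 to 0.25 at the widest. Col6a6 and Col6a5, minor chains of the same family, were at 13.0 ± 3.09 and 0.934 ± 0.126 CPM in controls (SD, n = 3) and had log2 fold changes of -0.22 (SE 0.19) and 0.51 (SE 0.30).

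Col8a1, a short-chain network collagen of vessel walls and other matrices, was among the most abundant chains at 1261, 1755 and 1493 CPM in controls and 1344, 1585 and 1591 CPM in ecko libraries. Its log2 fold change was 0.00 (SE 0.12), and that of its partner Col8a2 was 0.05 (SE 0.14). Col17a1, which crosses the membrane of basal keratinocytes in hemidesmosomes, averaged 1084 ± 106 CPM in controls against 1108 ± 34.8 CPM in ecko libraries (SD over 3 libraries, log2 fold change 0.03, SE 0.09). Of 7 basal keratinocyte markers none passed (median 0.04), while of 7 markers of differentiated keratinocytes 2 rose, Krt1 and Casp14 (median 0.11). None of 8 Schwann cell markers (median 0.09) or 6 macrophage markers (median 0.21) passed.

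The chains that sit on the surface of fibrils were split in direction. Col12a1 had a log2 fold change of 0.14 (SE 0.09), Col14a1 -0.17 (SE 0.11), Col16a1 -0.03 (SE 0.10), Col20a1 0.09 (SE 0.08) and Col19a1 0.31 (SE 0.31). Col22a1, a chain known from tissue junctions such as the ends of muscle fibres, had 34.2, 28.4 and 28.9 CPM in controls and 22.5, 24.8 and 28.4 CPM in ecko libraries, which only just overlapped (-0.27, SE 0.11, edgeR adjusted p = 0.260). The membrane-spanning chain gene Col13a1 had 9.99, 10.0 and 8.34 CPM in controls and 8.23, 7.47 and 7.88 CPM in ecko libraries, without overlap (-0.27, SE 0.11, edgeR adjusted p = 0.307). The remaining members, Col23a1, Col25a1, Col26a1 and Col28a1, had values from -0.30 to 0.25 and edgeR adjusted p of 0.416 or more.

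Levels can be compared between genes per length of exon, in CPM per kilobase of the union of annotated exons. In controls Col3a1 stood at 1117 ± 142, Col1a1 at 1079 ± 93.1 and Col1a2 at 719 ± 70.5 CPM per kilobase (SD, n = 3 each), followed by Col6a1 at 297 ± 43.6, Col8a1 at 192 ± 31.5 and Col17a1 at 180.4 ± 17.7. By this length the order of the first pair is not resolved, since their control libraries overlap. So do those of 29 of the 42 pairs of neighbours in the order. The highest basement membrane chains were Col4a1 at 85.9 ± 8.95 and Col4a2 at 66.1 ± 4.75, and the highest cartilage chains Col9a2 at 78.5 ± 12.6 and Col9a3 at 57.7 ± 10.2. Col11a2, at 33.2 ± 3.74, lay above Col11a1, at 18.7 ± 2.54, and Col15a1, at 27.8 ± 3.07, above Col18a1, at 18.2 ± 0.994 CPM per kilobase (SD, n = 3 each).

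The length taken for a gene changes some of these orders. With the longest annotated transcript instead, Col3a1 stood at 1971 CPM per kilobase in controls, and Col1a2 came before Col1a1, at 1671 against 1194. Col1a2 moved up because its annotated exons add up to 12426 bases and its longest transcript to 5348. The order of Col5a1 and Col5a2 turned too, as their log2 ratio in controls was 0.38 by exon length and -0.14 by longest transcript. Of the 10 highest chains, 9 were shared between both lengths.

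**Figure D4:**
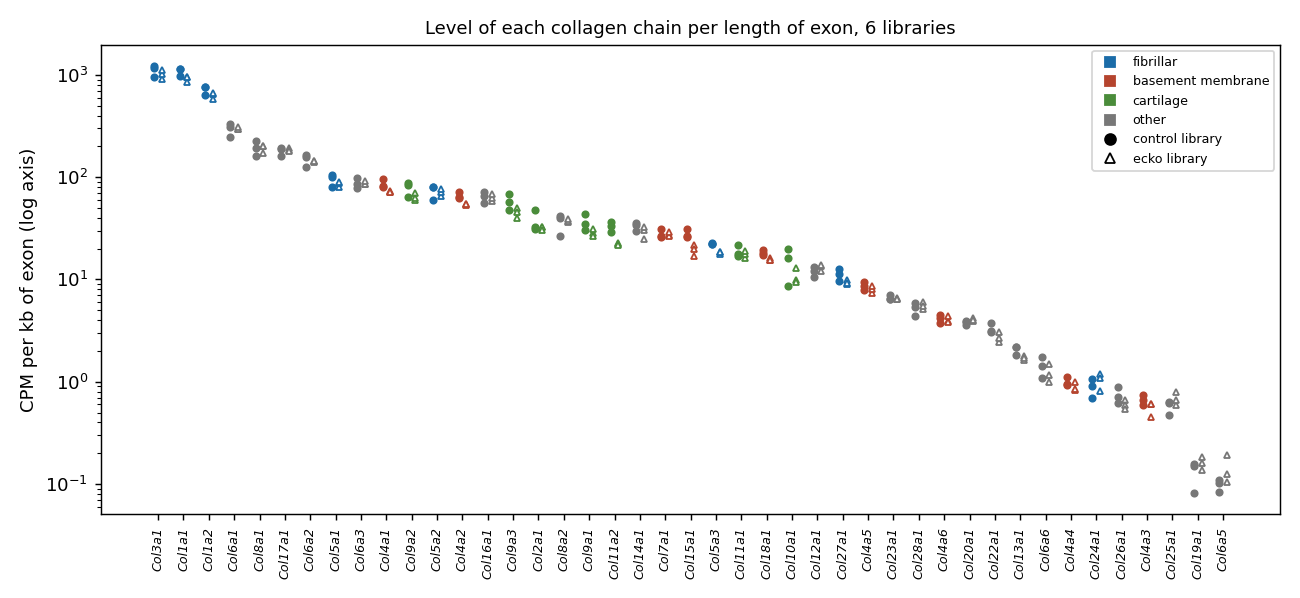
CPM per kilobase of annotated exon on a log axis for each of the 43 chains, ordered by the control mean, with filled circles for control and open triangles for ecko libraries. Col3a1, Col1a1 and Col1a2 lead, and the ecko triangles of Col11a2, Col15a1 and Col5a3 lie below their circles.

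As a share of the library, the 43 chains took 3.51%, 4.19% and 4.14% of all counts in controls and 3.28%, 3.62% and 3.76% in ecko libraries. The means were 3.95% ± 0.383 and 3.55% ± 0.249 (SD, n = 3 each), and control 1 lay below 2 of the ecko libraries. The basement membrane chains took 0.178% ± 0.00970 in controls and 0.151% ± 0.00404 in ecko skin, without overlap. Cartilage chains took 0.150% ± 0.0239 and 0.122% ± 0.00179, also without overlap. Fibrillar chains took 2.88% ± 0.305 and 2.55% ± 0.214, and other chains 0.734% ± 0.0750 and 0.730% ± 0.0315, and both overlap (SD, n = 3 each). No test was made on these sums, which add up chains of very different abundance.

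In 5 of the 13 pairs of related chains compared, the ratio within a library did not overlap between the groups. Besides Col11a1 to Col11a2, Col18a1 to Col15a1 and Col5a1 to Col5a2, these were Col1a1 to Col1a2, with a shift of -0.04 on the log2 scale, and Col6a1 to Col6a2, with a shift of 0.06. All 5 had the smallest p that the design allows (exact permutation p = 0.1, two-sided, and 0.26 adjusted over 13 pairs), so none could pass. Taken singly, 21.0% of all genes tested did not overlap, and no share was taken for ratios of other gene pairs. The pairs with Col11a2 and Col15a1 each hold a chain that fell, so their shifts are not separate results.

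**Figure D5:**
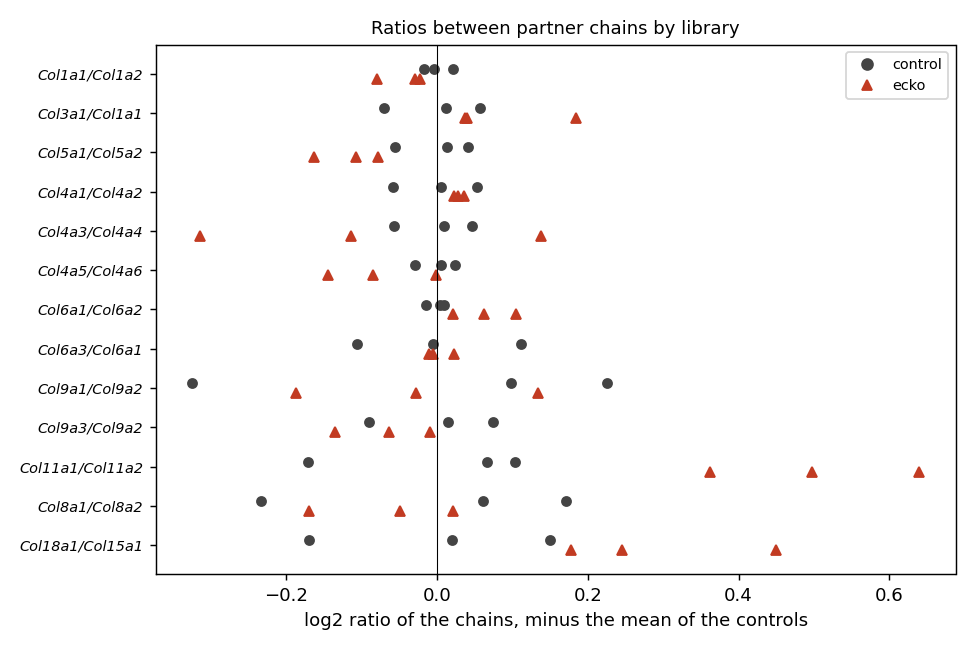
Log2 ratio of the counts of 2 related chains in each library, minus the control mean of that pair. Circles mark control and triangles ecko libraries. Col11a1/Col11a2 shows the widest gap, with a shift of 0.50 between the means, followed by Col18a1/Col15a1 with 0.29.

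Among genes that build and trim collagen, Adamts14 passed. Of 35 genes for hydroxylation, folding, export, cleavage and cross-linking of the chains, 1 fell and none rose. The values of 28 were below 0 and of 7 above, and the median was -0.07. At an unadjusted p under 0.05, 7 were lower in ecko skin and none higher, beside 7.95% of all genes lower and 7.41% higher. Adamts14, which encodes a protease that removes the leading peptide of fibrillar procollagens, fell from a mean of 91.9 ± 4.45 to one of 71.8 ± 3.27 CPM (SD over 3 libraries). Its log2 fold change was -0.36 (SE 0.06, edgeR adjusted p = 0.0253). P3h1, a prolyl hydroxylase gene of the folding step, had -0.29 (SE 0.08, edgeR adjusted p = 0.142).

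Decorin, periostin and other proteins bind collagen fibres. Of 16 such genes none passed, with 8 above 0 and 8 below. Unadjusted, 4 had a p under 0.05, all higher in ecko skin, beside 7.41% of all genes higher and 7.95% lower. Postn, the gene of periostin, had 0.30 (SE 0.10, edgeR adjusted p = 0.195), and Ogn, a small proteoglycan gene, 0.49 (SE 0.17, edgeR adjusted p = 0.207). Of 9 collagen receptor genes tested none passed, adjusted or not, and the smallest p was that of Mrc2, the gene of an uptake receptor for collagen (-0.15, SE 0.07, edgeR adjusted p = 0.386).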

How the data were processed

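The authors deposited 1 table of expected counts per gene for 6 libraries of polyA-selected ear skin RNA. The submitters' processing notes name RSEM 1.3.1, Bowtie2 2.4.5 and HISAT2 2.2.1, without their roles, for the build GRCm38.p6. Whether strand was used in counting was not given in the sources used here. Of the expected counts, 10.5% were not whole, and they were rounded. Genes were filtered with filterByExpr (minimum count 10), which left out 3556, scaled by TMM and tested with the quasi-likelihood test of edgeR 4.0.16 in R 4.3.3, ecko against control, with genotype as the only term and Benjamini-Hochberg adjustment over all genes tested at 0.05. The fitting script was tested on simulated data.

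Lengths are from GENCODE M21 and gene positions from RefSeq on GRCm38.p6. Chain groups and the companion lists were chosen with earlier results of these data known. Values per library are given for chains that passed and for the 2 highest per length and the 2 smallest p-values in each group. They are also given for type IV chains and for pairs of related chains. Of other lists, genes that passed and the 2 with the smallest p are eligible for naming, and only those a result touches are named. Alternatives were other scalings, filters and tests (DESeq2 1.42.0, limma 3.58.1), unrounded counts, a replicate block, a sex term, male libraries only, single libraries left out and a threshold of 0.1. No pair of libraries within a group agreed within sampling noise. Counts of 17255419 to 18054700 per library set the counting precision, and the common biological coefficient of variation was 8.80%.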

Additional observations from a re-analysis of the deposited data

How the results depend on the processing

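No alternative turned the direction of Col11a2, Col15a1 or Col5a3, whose log2 fold changes ranged from -0.67 to -0.50, from -0.60 to -0.42 and from -0.31 to -0.27. They passed in 15, 10 and 11 of 17 alternatives. These include the threshold of 0.1, which a chain that passed at 0.05 could not fail. The 3 chains that fell became 5 with DESeq2, 1 in male libraries only, and 0 to 7 with single libraries left out (0 without ecko 1 or ecko 2, 1 without control 2 or ecko 3, 7 without control 3), and none rose in any alternative. Unadjusted, 12 chains were lower and 0 higher at a p under 0.05 by edgeR. With single libraries left out, 26 to 34 of the 43 chains were below 0. Col4a6, Col7a1, Col2a1 and Col11a1 kept their sign in 16, 15, 16 and 16 of 17 alternatives. Over all genes, the 102 that rose became 195 with DESeq2, 182 at a threshold of 0.1 and 22 to 165 with single libraries left out, and the 160 that fell became 91 in male libraries only, 269 at 0.1 and 34 to 242. Of the companion genes, the 2 that rose became 6 with DESeq2, 1 in male libraries only, 4 at 0.1 and 0 to 2, and the 19 that fell 8 to 25. The cause of these changes was not tested, beyond the fewer libraries of some fits. The collagen share differed by -0.39 percentage points, and by -0.61 to -0.26 with single libraries left out.

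Replicate numbers are shared by the groups, but same-numbered libraries did not deviate together in every pair (correlations of deviations 0.0593, 0.0244 and 0.186), and controls 1 and 2 correlated best with another number, so the numbers were not taken to pair libraries. With the replicate block, 2 chains fell, since Col5a3 had an edgeR adjusted p of 0.0594, and over all genes 63 rose and 129 fell. Of the companion genes 0 rose and 22 fell.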

Other observations

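The spread of the collagen chains was wider in controls than in ecko libraries. The coefficient of variation over 3 libraries was larger in controls for 37 of 43 chains (86%), with medians of 12.7% and 7.39%, while over all genes tested it was larger in controls for 60.4%, with medians of 8.07% and 6.34%. All 7 cartilage chains were more variable in controls, with medians of 17.7% and 7.99%, and so were 7 of 9 basement membrane chains, with 9.91% and 6.57%. The same held for 7 of 8 fibrillar and 16 of 19 other chains. Control 2 was the highest control in 23 of the 43 chains, and controls 1 and 3 were each the lowest in 19, so the chains are not separate observations. With 3 libraries a group, no test of the spread was made.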
